A study of Mus musculus with 6 samples.

Results

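The genes of the proteasome were examined in Lewis cells, a mouse lung carcinoma line, kept for 24 hours either in SD70, an inhibitor of the histone demethylase KDM4C, or in the vehicle DMSO. Members were taken by symbol as every listed gene named Psma, Psmb, Psmc, Psmd, Psme, Psmf or Psmg with a number, without the immunoproteasome genes Psmb8, Psmb9 and Psmb10, which are given beside them. The rule found 46 genes of 16081 listed, of which 15 carry names of the 20S core (Psma, Psmb), 21 carry names of the 19S particle (Psmc, Psmd) and 10 are activators and other genes (Psme, Psmf, Psmg). Both groups were the same cell line in the same medium, and each had 3 samples (n = 3 for every mean below). The labels do not say whether the 3 samples of a group came from separate cultures, so p-values measure the spread between these samples, which may be technical. No SD70 dose for this experiment is given in the sources used here, and no time other than 24 hours was measured.

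The 26S proteasome degrades proteins tagged with ubiquitin. Its 20S core is a barrel of alpha and beta rings with the peptidase sites inside, and its 19S particle binds the tagged protein, removes the ubiquitin and feeds the unfolded chain into the core with a ring of ATPases. Other caps (Psme1 to Psme4) can open the core without ATP, and dedicated chaperones assemble core and particle. When proteasome activity falls, the transcription factor NRF1, encoded by Nfe2l1, is known to raise the subunit genes together.

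Totals ranged from 15276744 to 17060424 expected counts per sample. Values below are expected counts normalized to the mean effective library size (normalized counts), unless a sentence gives FPKM, which is scaled by transcript length and library size. Of 6 epithelial markers, Epcam, Cdh1, Krt7 and Krt19 had at most 10 counts in every sample, and Krt8 and Krt18 were lower with SD70 by log2 fold changes of -0.55 and -1.22. Their list summed to 3916 to 4107 normalized counts with DMSO and 2572 to 2896 with SD70. Of 4 fibroblast markers, Pdgfra and Dcn were lower at -0.999 and -0.19, and this list summed to 2739.8 to 2845 with DMSO and 1722 to 1863 with SD70. The part of these markers in the results below was not tested. Of 7 immune markers, 3 were listed, with a sum of 2.92 to 5.75 normalized counts in the DMSO samples and 4.97 to 6.60 in the SD70 samples. Ptprc was at 0 in the DMSO samples and had 1 to 2 counts in each SD70 sample. The immunoproteasome and the caps Psme1 and Psme2 are abundant in immune cells. The 3 listed markers of these cells were near 0 in both groups and the others were not listed. A part of such cells in the results was not tested. In bulk RNA, fewer cells and less RNA per cell cannot be told apart.

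The samples of a group did not rank evenly for these genes. Among the 44 members tested, DMSO sample 1 was the lowest DMSO sample in 36 (81.8%), including 13 of the 14 subunits of the 20S core. Over all 11552 genes tested it was the lowest in 36.1%. Calls that changed without DMSO sample 1 are given with the genes. Among the SD70 samples, sample 2 was the highest in 27 members (61.4%, against 29.7% of all genes). SD70 sample 3 was the lowest in 24 (54.5%, against 31.6% of all genes).

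Proteasome genes differed between SD70 and DMSO by small amounts and in both directions. At an adjusted p under 0.01 in edgeR's quasi-likelihood test, 18 of the 44 tested members changed, of which 14 were higher and 4 lower with SD70. The background was high, since 49.9% of all genes tested passed the same threshold, 25.8% as higher and 24.2% as lower. Of the members, 40.9% passed, 31.8% as higher and 9.09% as lower. The gaps between these shares and those of all genes were not tested. Among the 3976 genes at least as abundant as the lowest subunit of core or particle, 57.6% passed, 31.9% as higher and 25.8% as lower, with a median absolute log2 fold change of 0.20. The 31 subunits of core and particle, counted here by their Psm names, all lie in that set. Of these 31, 35.5% passed, 25.8% as higher and 9.68% as lower, with a median absolute log2 fold change of 0.13. Adrm1 and Sem1, which lack such names, are counted in a linked list of genes bound to the proteasome. The median log2 fold change of the members was 0.13, against -0.0043 for all genes tested, and their values ran from -0.27 to 0.68. The median absolute log2 fold change was 0.17 for the members and 0.25 for all genes. By name, the 14 core genes tested had 2 higher and 2 lower with a median of -0.0077, the 21 genes of the 19S names had 7 higher and 1 lower with a median of 0.13, and the 9 activators and others tested had 5 higher and 1 lower with a median of 0.24. The difference between these parts was not tested. Without DMSO sample 1, the core had 0 higher and 3 lower, with a median of -0.042. No member reached an absolute log2 fold change of 1 at this threshold, which 5.90% of all genes did. The 95% intervals of the 26 uncalled members lay between -0.25 and 0.51. In 28 members (63.6%) the 3 SD70 samples all lay on one side of the 3 DMSO samples, against 64.4% of all genes tested.

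**Figure D1:**
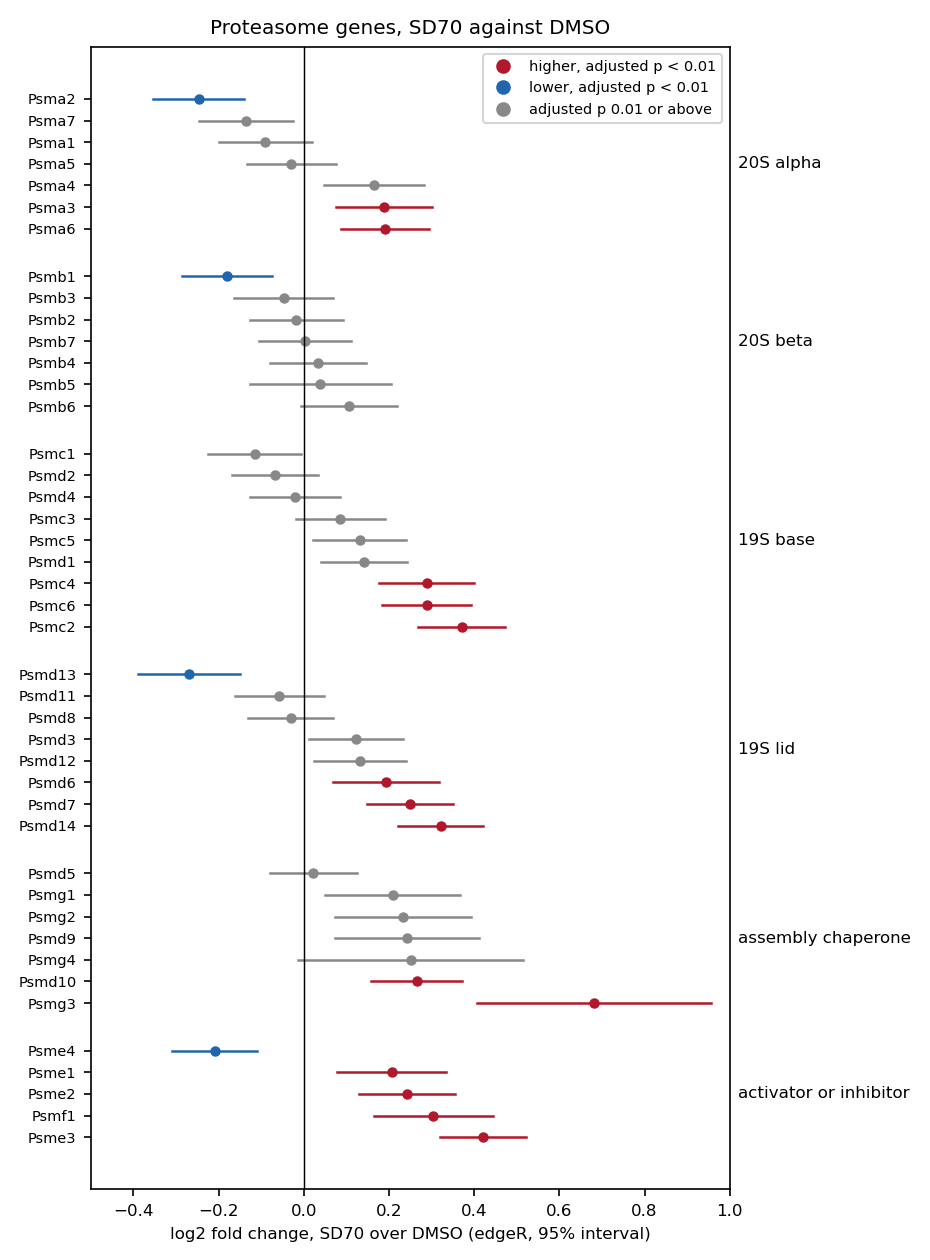
Log2 fold change of SD70 over DMSO for 43 proteasome genes, grouped by role, with the 95% interval from edgeR as a line and colour marking the direction of genes with an adjusted p under 0.01. The alpha and beta rings scatter around 0, the chaperones lie at or right of 0 on this scale (Psmd5 turns with the scaling), and Psmg3 lies farthest right at 0.68 with the widest interval.

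The members that were left untested had almost no counts. Psmb11, the beta subunit of the thymus, had at most 2.03 normalized counts in any sample, and Psme2b, a copy of Psme2, had at most 1.01. Psmc3ip fits the name rule, but encodes a cofactor of meiotic recombination and is no subunit, and its log2 fold change was 0.13 (adjusted p = 0.385, edgeR). The other 43 tested members are described by role.

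The subunits were abundant. Among the 31 genes of core and particle, mean FPKM with DMSO ran from 51.9 for Psmd6 to 356.5 for Psmb1 (lowest to highest 6.86-fold), with a median of 120, against a median of 13.2 for all genes tested. On this scale the 20S genes had a median of 172 and the 19S genes of 102. The 7 chaperones ranged from 7.49 for Psmg3 to 89.5 for Psmd10.

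In the alpha ring, which forms the gate of the core, 2 of 7 genes were higher and 1 was lower, so 42.9% passed, near the 49.9% of all genes. Psma2 (chromosome 13, 14613242 to 14625673, GRCm38.p6) had 2093, 2173 and 2127 normalized counts with DMSO, against 1769.8, 1879 and 1736 with SD70. All 3 SD70 samples were lower, and its log2 fold change was -0.25 (SE 0.0525, adjusted p = 0.000132, edgeR). Psma6 went the other way. It had 2337, 2449 and 2532 normalized counts with DMSO and 2813, 2821 and 2718 with SD70, a log2 fold change of 0.19 (SE 0.0506, adjusted p = 0.00151, edgeR). Psma3 had 2923, 3527 and 3289 with DMSO and 3761, 3685 and 3652 with SD70, a log2 fold change of 0.19 (SE 0.0552, adjusted p = 0.00387, edgeR). The groups of Psma3 did not overlap, but DMSO sample 1 was far below the other DMSO samples. Without that sample the log2 fold change was 0.12 for Psma3 (adjusted p = 0.0703) and 0.16 for Psma6 (adjusted p = 0.0155), and neither passed the threshold in edgeR. Psma3 also missed it without DMSO sample 3 (adjusted p = 0.0120), SD70 sample 1 (adjusted p = 0.0188) or SD70 sample 2 (adjusted p = 0.0110), and Psma6 without DMSO sample 2 (adjusted p = 0.0129). With changes of scaling and test counted too, Psma3 missed it in 7 of 15 alternatives. The other 4 alpha genes had log2 fold changes from -0.14 for Psma7 to 0.17 for Psma4 and did not pass. Without DMSO sample 1, Psma7 passed as lower at -0.19 (adjusted p = 0.00638, edgeR) and Psma4 stood at 0.09. Without DMSO sample 2, Psma4 passed as higher at 0.21 (adjusted p = 0.00673, edgeR).

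In the beta ring, 1 of 7 genes changed (14.3%, against 49.9% of all genes), and the 3 genes of the peptidase sites did not pass the test. Psmb5, the chymotrypsin-like site and the target of bortezomib, had 1052, 1262 and 1243 normalized counts with DMSO and 1066, 1297 and 1293 with SD70. Its groups overlapped, each with 1 low sample, and its log2 fold change was 0.04 with a 95% interval from -0.13 to 0.20. Of its exonic bases, 12.1% overlap Mir686. Psmb6, the caspase-like site, had 1228, 1322 and 1315 with DMSO and 1358, 1409 and 1394 with SD70. These groups did not overlap, yet the log2 fold change of 0.11 (95% interval -0.01 to 0.22) had an adjusted p of 0.0950 in edgeR. Psmb7, the trypsin-like site, had 2616, 2966 and 2798 with DMSO and 2726, 2934 and 2731 with SD70, which overlapped. Its log2 fold change was 0.0019, with a 95% interval from -0.11 to 0.11, and its sign turned with the scaling. Of its exonic bases, 11.8% overlap Nek6 on the other strand, so with counting not stated to use strand, reads there cannot be told apart. The lower beta gene was Psmb1, the most abundant subunit by FPKM, with 4797, 5042 and 5337 normalized counts with DMSO and 4426, 4722 and 4238 with SD70. All 3 SD70 samples were lower, and the log2 fold change was -0.18 (SE 0.0522, adjusted p = 0.00332, edgeR). Psmb1 did not pass without DMSO sample 3 (-0.15, adjusted p = 0.0354), without SD70 sample 1 (-0.17, adjusted p = 0.0114) or without SD70 sample 3 (-0.15, adjusted p = 0.0212). Over the 14 core genes tested, 4 changed, and leaving out DMSO sample 3 or SD70 sample 1 left 2.

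The 19S base, which holds the ATPase ring and the ubiquitin receptors, had 3 of 9 genes higher (33.3%, near the 25.8% of all genes) and none lower. Psmc2, an ATPase (chromosome 5, 21785275 to 21803787), had 2207, 2269.7 and 2374 normalized counts with DMSO and 2886, 2999 and 2975 with SD70. The groups were far apart, and it had the largest rise among the 31 subunits with Psm names, a log2 fold change of 0.37 (SE 0.0504, adjusted p = 9.97e-08, edgeR). Adrm1, outside these 31, rose by 0.48. Psmc6, another ATPase, had 3035, 3226 and 3109 with DMSO and 4073, 3745 and 3626 with SD70, with a log2 fold change of 0.29 (SE 0.0517, adjusted p = 1.2e-05, edgeR). Psmc4 rose by the same log2 fold change, 0.29. The ATPases did not move as a block. The 3 that rose stood beside Psmc1, at -0.12 on the log2 scale (adjusted p = 0.0600, edgeR), Psmc3 with 0.09 and Psmc5 with 0.13. All 6 had groups that did not overlap, as had 64.4% of all genes tested. The scaffold genes Psmd1 and Psmd2 had log2 fold changes of 0.14 and -0.07, and the ubiquitin receptor Psmd4 had -0.02. None of these 3 passed, apart from Psmd1 at 0.18 when SD70 sample 2 was left out (adjusted p = 0.00556, edgeR).

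In the 19S lid, which holds the enzyme that cuts ubiquitin from the substrate, 3 of 8 genes were higher and 1 was lower, so 50% passed, as did 49.9% of all genes. Psmd14, that enzyme (chromosome 2, 61711694 to 61800376), had 2693, 2646 and 2733 normalized counts with DMSO and 3273, 3415 and 3399.5 with SD70. The spread within each group was small against the gap, and the log2 fold change was 0.32 (SE 0.049, adjusted p = 8.39e-07, edgeR). Psmd7, its partner in the lid, had 3627, 3964 and 3958 with DMSO and 4634, 4563 and 4528 with SD70, a log2 fold change of 0.25 (SE 0.0499, adjusted p = 6e-05, edgeR). Psmd6 had a log2 fold change of 0.19 (adjusted p = 0.00725, edgeR), which did not pass without DMSO sample 1 (0.13, adjusted p = 0.0779), nor without any other single sample apart from SD70 sample 3. With changes of scaling and test counted too, Psmd6 missed the threshold in 10 of 15 alternatives. Psmd13, a structural lid subunit (chromosome 7, 140882394 to 140898642), had 1464, 1563 and 1635 with DMSO and 1307, 1366 and 1189 with SD70. It was lower in all 3 SD70 samples, with the largest fall among the members, -0.27 (SE 0.059, adjusted p = 0.00018, edgeR). Of its exonic bases, 10.1% overlap Sirt3 on the other strand, with the same limit as for Psmb7. The other 4 lid genes had log2 fold changes from -0.06 for Psmd11 to 0.13 for Psmd12.

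**Figure D2:**
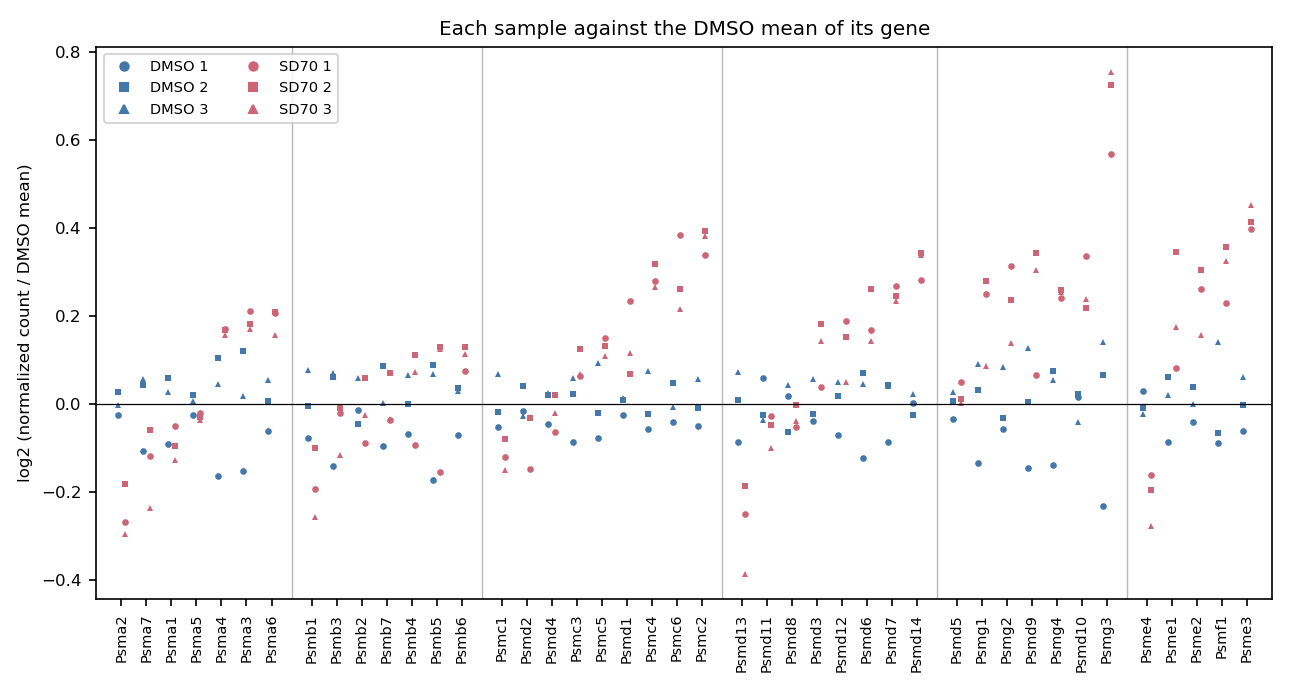
Each point is 1 sample, plotted as the log2 ratio of its normalized count to the mean of the 3 DMSO samples for that gene, with DMSO in blue and SD70 in red, marker shape for the replicate number and vertical lines between role groups in the order of the plot of fold changes. DMSO sample 1 is the lowest blue point for most genes, and the SD70 points of Psmc2, Psmd14, Psme3 and Psmg3 lie above every DMSO point.

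Summed over the genes of each assembly with Psm names, 19S FPKM was higher with SD70 and 20S FPKM overlapped. The 17 genes of the particle summed to 1758, 1810.2 and 1826 FPKM with DMSO, against 1914, 1928 and 1893 with SD70, a ratio of means of 1.06. The 14 genes of the core summed to 2336, 2532 and 2489 with DMSO and 2354, 2454 and 2359.7 with SD70, a ratio of 0.974. The ratio of 19S to 20S, which does not depend on the scaling between libraries, was 0.753, 0.715 and 0.734 with DMSO and 0.813, 0.786 and 0.802 with SD70. DMSO sample 1 had the highest DMSO ratio, and it stayed below the lowest SD70 ratio. These sums and ratios are given as a description and were not tested. They weigh the abundant transcripts most, leave out Adrm1 and Sem1, and do not measure assembled particles.

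**Figure D3:**
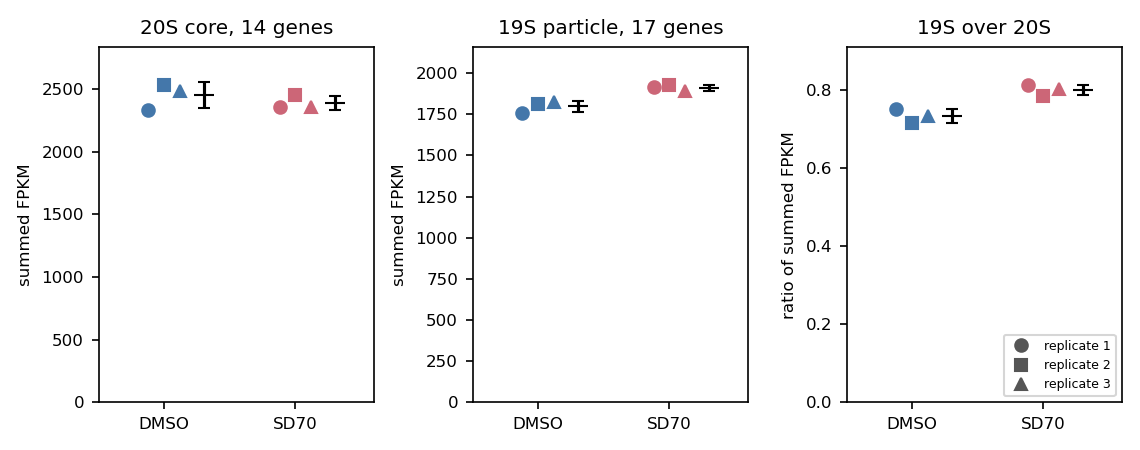
Summed FPKM of the 14 core genes (left) and the 17 genes of the 19S particle with Psm names (middle), and the ratio of the particle to the core (right), with 1 point per sample and the mean with SD (n = 3) in black. The core sums overlap between the groups, and the SD70 samples lie above the DMSO samples for the particle and for the ratio.

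Of 7 chaperones, 2 were higher (28.6%, near the 25.8% of all genes), none was lower and 5 did not pass. Their median log2 fold change was 0.24, and all 7 values were above 0 apart from Psmd5 under library totals or FPKM scaling, where it fell below 0. Psmg3, a chaperone of alpha ring assembly (chromosome 5, 139823613 to 139826894), had 71.1, 87.4 and 92.1 normalized counts with DMSO and 124, 138 and 141 with SD70. This was the largest log2 fold change of any member, 0.68 (SE 0.135, adjusted p = 5.18e-05, edgeR), and with its low counts also the one with the largest SE. Of its exonic bases, 9.68% overlap Gm26938. Psmd10, the 19S chaperone also called gankyrin, had 1893, 1902 and 1819 with DMSO and 2362, 2177 and 2209 with SD70, with a log2 fold change of 0.27 (SE 0.0526, adjusted p = 5.21e-05, edgeR). Psmg1, Psmg2 and Psmg4, which work with Psmg3 in core assembly, had log2 fold changes of 0.21, 0.23 and 0.25 without passing, and Psmd9, a 19S chaperone, had 0.24 (adjusted p = 0.0128, edgeR). Psmg1 and Psmg2 passed without SD70 sample 3 (0.26 and 0.27), and Psmd9 passed without DMSO sample 3 (0.30) or SD70 sample 1 (0.32). Reads of Psmd9 are less certain, since 25.5% of its exonic bases overlap Gm26745 on the other strand. Psmd5 had 0.02.

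All 5 genes of the activators and the inhibitor changed, 4 of them upward (80.0%, against 25.8% of all genes). Psme3, the nuclear activator PA28 gamma (chromosome 11, 101316213 to 101323537), had 3126, 3256 and 3404 normalized counts with DMSO and 4295, 4343 and 4461 with SD70. The gap was many times the spread within a group, with a log2 fold change of 0.42 (SE 0.0497, adjusted p = 5.72e-09, edgeR), the lowest adjusted p of any member. Psmf1, which encodes the proteasome inhibitor PI31, had 595, 605 and 698 with DMSO and 742, 810.3 and 792 with SD70, a log2 fold change of 0.30 (SE 0.0686, adjusted p = 0.000276, edgeR). Psme1 and Psme2, the 2 chains of PA28 alpha-beta, had log2 fold changes of 0.21 and 0.24. Psme1 did not pass in edgeR without DMSO sample 1 (0.16, adjusted p = 0.0428), DMSO sample 3 (adjusted p = 0.0149) or SD70 sample 2 (0.13, adjusted p = 0.0877). With changes of scaling and test counted too, Psme1 missed the threshold in 7 of 15 alternatives. Counts that were not whole were listed for Psme2, its copy Psme2b and Psmf1 and for no other member, and values of genes that share reads are less certain. Psme4, the large single-chain activator PA200 (chromosome 11, 30771775 to 30881150), went down, from 6263, 6097 and 6044 with DMSO to 5486, 5362 and 5064 with SD70. The difference was -0.21 on the log2 scale (SE 0.049, adjusted p = 0.000408, edgeR), so the 2 nuclear caps moved in opposite directions.

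The promoters were searched for letters of motifs known from proteasome genes, to show what the moving members share. RefSeq promoters (GRCm38.p6, 250 bases before the start) were found for 39 of the 46 members. Many of these windows hold annotated exon sequence directly before the start, that of Psmc6 among them. The windows of Psma3, Psmd2 and Psmf1 lie inside the span of the gene itself. The shares below are therefore not those of promoter sequence alone. The core of the antioxidant response element, TGACNNNGC, to which NRF1 with a small Maf partner binds, was in 5 of 39 members (12.8%) on either strand, namely Psmb5, Psmb6, Psmc6, Psmd9 and Psmd12, against 11.5% of all genes with a promoter. Among the members that rose it was in 1 of 13, Psmc6. The CCAAT box was in 14 of 39 members (35.9%), against 37.5% of all genes, and in 6 of the 13 that rose. These are matches of letters and not bound sites, and no match says only that the letters are not in this window. The 170 bases directly before the RefSeq start are printed 5′ to 3′ on the strand of the gene for the largest rise (Psmg3), the lowest adjusted p (Psme3), the deubiquitinase of the lid (Psmd14) and a chaperone with the response element (Psmd9), with capitals marking TGACNNNGC or the CCAAT box, which reads as ATTGG on the other strand.
Psmg3, chr5:139826895-139827064, minus strand: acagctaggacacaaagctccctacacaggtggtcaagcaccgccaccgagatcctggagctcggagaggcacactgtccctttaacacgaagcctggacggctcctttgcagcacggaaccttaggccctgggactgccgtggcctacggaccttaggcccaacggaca
Psme3, chr11:101316043-101316212, plus strand: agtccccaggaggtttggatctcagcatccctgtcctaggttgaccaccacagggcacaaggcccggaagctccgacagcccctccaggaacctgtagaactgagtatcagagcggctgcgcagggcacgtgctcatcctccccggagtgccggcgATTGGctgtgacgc
Psmd14, chr2:61711524-61711693, plus strand: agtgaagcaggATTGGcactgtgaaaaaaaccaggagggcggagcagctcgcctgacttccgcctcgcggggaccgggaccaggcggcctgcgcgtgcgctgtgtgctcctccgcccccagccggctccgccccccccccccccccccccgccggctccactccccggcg
Psmd9, chr5:123228020-123228189, plus strand: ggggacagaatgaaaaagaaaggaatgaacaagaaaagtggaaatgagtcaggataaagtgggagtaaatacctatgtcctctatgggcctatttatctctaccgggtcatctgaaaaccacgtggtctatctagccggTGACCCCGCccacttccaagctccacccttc
Of these windows, Psmg3 held neither motif, Psme3 and Psmd14 each held 1 CCAAT box on the other strand, and the response element of Psmd9 lay 31 to 23 bases before the start. Psmd9 did not pass the test, and neither did Psmb5, Psmb6 or Psmd12, the other members with the element apart from Psmc6.

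The products of the immunoproteasome genes, which interferon induces and immune cells express, can replace the 3 peptidase subunits, and these genes did not move together. Psmb10, which takes the place of Psmb7, had 171, 151 and 172 normalized counts with DMSO and 303, 349.6 and 312 with SD70. All SD70 samples were higher, by a log2 fold change of 0.97 (SE 0.0974, adjusted p = 1.51e-10, edgeR), more than any member. Relative to Psmb7, the FPKM of Psmb10 was 4.50%, 3.57% and 4.30% with DMSO and 7.84%, 8.49% and 8.02% with SD70, so it remained the minor form. Psmb8, which replaces Psmb5, had a log2 fold change of 0.02 (adjusted p = 0.843, edgeR), a sign that turned with the scaling, and 27.0% of the FPKM of Psmb5 with DMSO against 26.4% with SD70. Psmb9, which replaces Psmb6, had 60.4, 41.8 and 59.5 normalized counts with DMSO and 32.5, 49.7 and 53.9 with SD70. These overlapped, and the interval of its log2 fold change ran from -0.66 to 0.16.

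**Figure D4:**
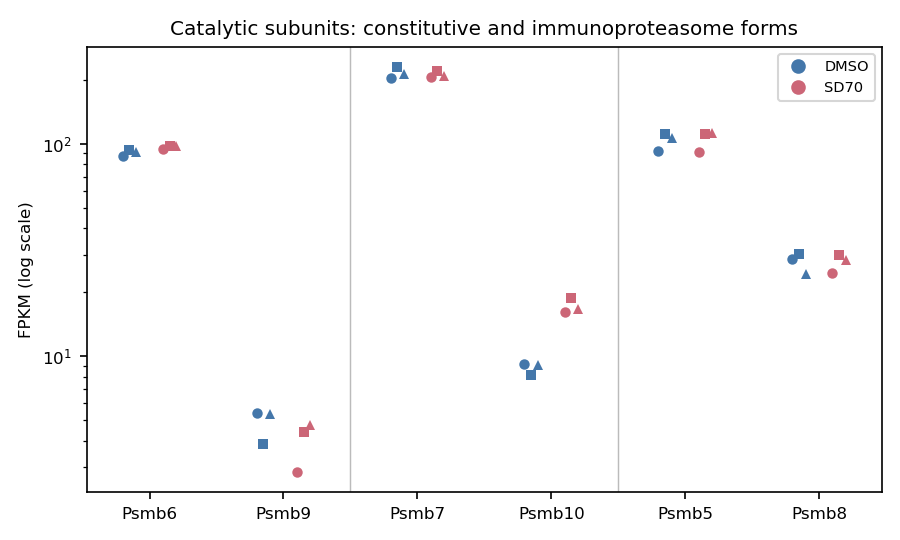
FPKM on a log scale for the 3 constitutive peptidase genes (Psmb6, Psmb7, Psmb5), each beside the immunoproteasome gene that can replace it (Psmb9, Psmb10, Psmb8), with 1 point per sample and marker shape for the replicate number. The SD70 points of Psmb10, with a mean of 17.2 FPKM, stand above its DMSO points, with a mean of 8.82, and those of the other genes lie closer together or overlap.

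Genes that work with the proteasome were taken from 5 lists, with 40 genes tested, of which 20 were higher and 3 lower (50% and 7.50%, against 25.8% and 24.2% of all genes), Psmb10 included. Without DMSO sample 1, 5 were lower, with Rps27a and Sem1 among them. Of the 11 genes tested for NRF1 control, 8 were higher (72.7%) and 1 lower, and Nfe2l3 was left untested by the filter on low counts. The largest rise of the 40 was that of Nfe2l1, which had 2551, 2684 and 2539 normalized counts with DMSO and 6790.0, 6707 and 7853 with SD70, a log2 fold change of 1.46 (SE 0.0561, adjusted p = 4.99e-21, edgeR). Ngly1, the enzyme that strips sugars from NRF1, had 0.66. The related factor Nfe2l2 had 0.53, and Mafg, a partner of both, had 0.47, while Btrc, part of a ubiquitin ligase for them, was lower at -0.25. Btrc did not pass without DMSO sample 2 (-0.20, adjusted p = 0.0341) or SD70 sample 2 (-0.22, adjusted p = 0.0209). The log2 fold change of Nfe2l1 was 1.46, and that of the subunits had a median of 0.04 over the 31 genes of core and particle. Taken apart, the median was -0.0077 for the core and 0.13 for the particle. NRF1 protein was not measured, and a link between these values was not tested.

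Of 11 genes tested for proteins bound to the proteasome or its assembly, 6 were higher (54.5%, against 25.8% of all genes) and 1 lower. One of the 6, Uchl5, missed the threshold in 11 of 15 alternatives. Zfand2a, a zinc finger gene induced by proteotoxic stress, had 1059, 1094 and 1171 normalized counts with DMSO and 1653, 1644 and 1635 with SD70, a log2 fold change of 0.57. The ubiquitin receptor Adrm1 had 0.48, Zfand5 0.32 and the deubiquitinase Usp14 0.26. Counts of Usp14 were not whole in all 6 samples, so its value is less certain. Pomp, the chaperone that brings the beta ring together, was lower in all 3 SD70 samples with -0.23 (adjusted p = 0.000909, edgeR), a call lost without SD70 sample 3 (-0.17, adjusted p = 0.0135). Among 5 genes for ubiquitin and its activating enzymes, 1 was higher (20.0%, near the 25.8% of all genes) and none lower. Rps27a, at -0.15 (adjusted p = 0.0110, edgeR), was just short of the threshold and passed as lower in 8 of 15 alternatives. These include the fit without DMSO sample 1 (-0.20, adjusted p = 0.00241, edgeR). The main activating enzyme, Uba1, had 0.19, and did not pass without DMSO sample 2 (adjusted p = 0.0114) or SD70 sample 3 (adjusted p = 0.0102). Of 10 genes for shuttles and the VCP segregase, 4 were higher (40.0%) and 1 lower, so 50% passed, against 49.9% of all genes. They include Ufd1 with 0.39, Rad23b with 0.35, Ubqln2 with 0.25 and Ubxn1 with -0.29. Ubqln2 did not pass without SD70 sample 3 (adjusted p = 0.0148).

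**Figure D5:**
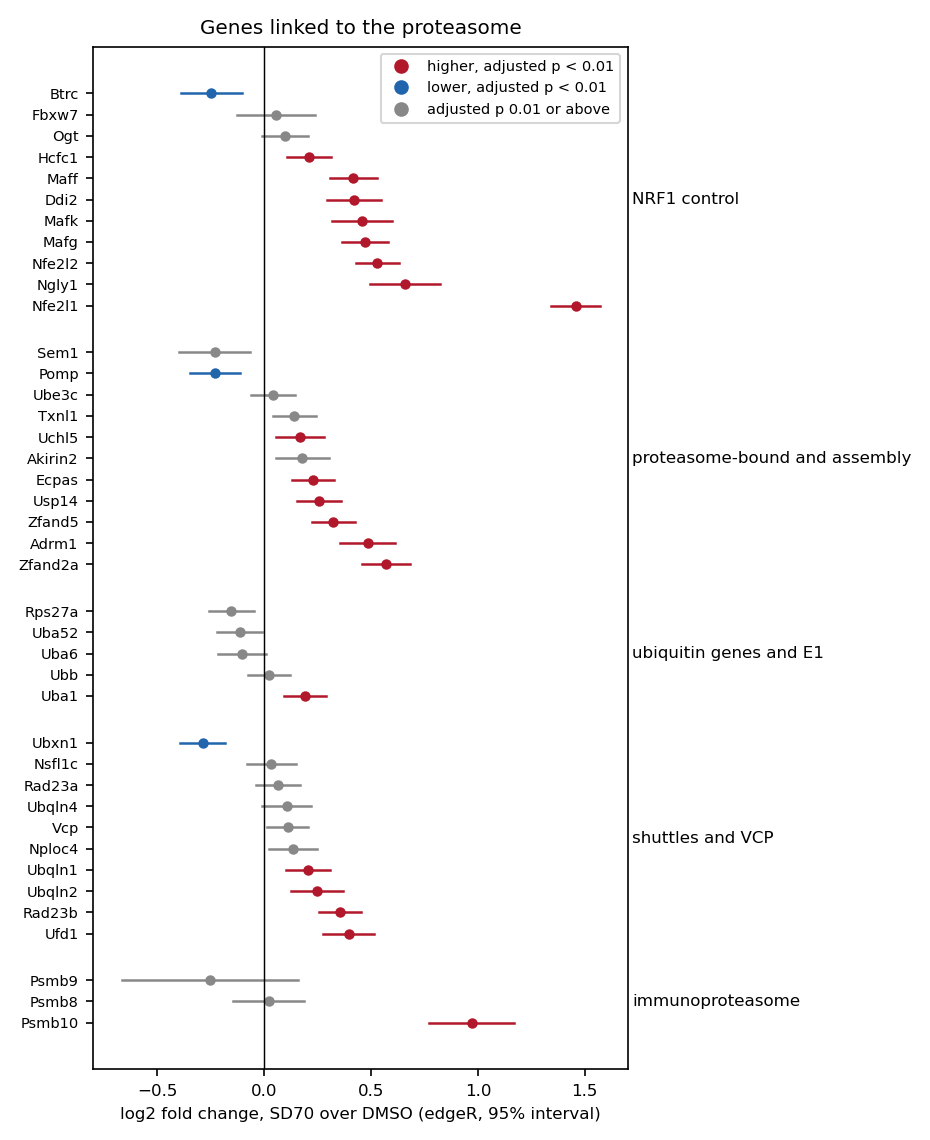
Log2 fold change of SD70 over DMSO for the 40 genes tested in the 5 lists of genes linked to the proteasome, with the 95% interval from edgeR and the colours of the plot of fold changes. Nfe2l1 at 1.46 and Psmb10 at 0.97 lie farthest right, and Ubxn1 at -0.29 has the lowest value.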

How the data were processed

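RNA-seq was carried out on 6 samples of Lewis cells, 3 with DMSO and 3 with SD70, grouped by their titles. The authors aligned clean BGISEQ-500 reads to GRCm38.p6 with HISAT, and deposited an expected count per gene, which is not normalized. The submitters' processing notes name StringTie 1.3.3b and the build mm8 without giving their roles, so the counting step and the build behind the counts are not certain. Coordinates and promoters here were taken from RefSeq tables for GRCm38.p6 by gene identifier, and not from the deposited files. The authors also deposited a length-scaled value, read here as FPKM from its relation to count and transcript length. The extraction protocol in the labels describes ground tissue, while treatment is described for cultured cells.

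Expected counts were rounded, filtered by filterByExpr, normalized by TMM and compared by the quasi-likelihood test of edgeR 4.0.16 (glmQLFTest after a robust glmQLFit) under R 4.3.3, with Benjamini-Hochberg adjustment over 11552 genes. A gene was called at an adjusted p under 0.01 with no minimum fold change. Standard errors were derived from the quasi-likelihood F statistic. The tests were first run on simulated data. Replicates within a group differed by more than sampling noise (chi-square per gene 2.12 to 4.97). With 3 samples in each group and 15276744 to 17060424 counts per sample, precision was set by the spread between samples, and by counting error for Psmg3, Psmg4 and other low genes.

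The members and lists were chosen with earlier results of these data known. The text names the 3 peptidase genes, up to 2 rises and 2 falls per role among called members, and at most 4 called genes per linked list with Nfe2l1 and the immunoproteasome genes. Btrc and Pomp, each the lower gene of its list, were named after their values were seen. Other members are given by single values. Alternatives were DESeq2 size factors, library totals, minimums of 1 count and of 10 counts in every sample, unrounded counts, the replicate number as a block, the Wald test of DESeq2 1.42.0, limma 3.58.1 on log2(FPKM + 1) and log2(FPKM + 0.1), each sample left out, an adjusted p under 0.05, and a minimum of 1 for the absolute log2 fold change. Promoters of 7 members were not analysed here, nor was Paaf1 of the linked lists, and 1 further linked gene is not reported here.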

Additional observations from a re-analysis of the deposited data

How the results depend on the processing

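Of the 18 called members, 13 passed with the same direction in each of 15 alternatives (10 higher, 3 lower). Psma3, Psma6, Psmb1, Psmd6 and Psme1 missed the threshold in at least 1, and 7 uncalled members passed in at least 1. No called member changed sign. Leaving out 1 sample at a time gave 10 to 16 members higher and 3 to 5 lower, 2 to 4 called in the core, 7 to 8 in the 19S names and 5 to 8 among activators and others, and 17 to 20 linked genes higher and 2 to 5 lower. A fold change minimum left 0 members higher, 0 lower and 0 in each part, with 1 linked gene higher and 0 lower. At an adjusted p under 0.05, 21 members were higher and 5 lower. Of the linked genes, 3 were lower, against 5 under library totals, with either minimum count or at an adjusted p under 0.05, and the cause was not tested. Replicate numbers did not pair the samples (correlations of same-numbered samples over 11552 genes -0.0686, 0.0477 and 0.114). With the replicate block, 20 members were called, the 18 with Psma4 and Psmd9. Uncalled genes near 0 changed sign, and the cause was not tested. Under library totals, Psmb4 was -0.0048, Psmb7 -0.036, Psmd5 -0.016, Psmb8 -0.018, Ubb -0.017 and Nsfl1c -0.0060. Psmb7 was -0.00095 with genes of at least 1 count and -0.0092 with at least 10. With FPKM + 1 and FPKM + 0.1, Psmb7 was -0.021 in both, Psmd5 -0.0075 and -0.0076, Psmb8 -0.0039 and -0.0040, and Ubb -0.0022 in both. Leaving out samples gave -0.056 to 0.019 for Psmb2, -0.0065 to 0.094 for Psmb4, -0.041 to 0.13 for Psmb5, -0.044 to 0.036 for Psmb7, -0.044 to 0.0018 for Psmd4, -0.062 to 0.10 for Psmb8, -0.040 to 0.12 for Fbxw7, -0.0026 to 0.044 for Ubb and -0.0090 to 0.070 for Nsfl1c.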

Other observations

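The COP9 signalosome is a relative of the 19S lid that removes NEDD8 from cullin ligases. Its 10 genes were added as a list after the data had been seen. With SD70, 4 were higher in edgeR's quasi-likelihood test (adjusted p under 0.01) and none lower, so 40.0% passed, against 49.9% of all genes tested, with a median log2 fold change of 0.10. The 4 were Cops2 with a log2 fold change of 0.31, Cops8 with 0.28, Cops3 with 0.19 and Cops5, the subunit that cleaves NEDD8, with 0.17. Cops9 had the lowest value, -0.39, with overlapping groups and an interval from -0.77 to -0.01.

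Within the groups, the 31 subunits of core and particle varied by a median coefficient of variation of 4.30% with DMSO and 2.93% with SD70. The 3976 genes with a mean at least that of the lowest of these subunits had medians of 3.40% and 4.35%. DMSO sample 1 was the lowest DMSO sample in 13 of the 14 core genes and 13 of the 17 particle genes. Its part in the DMSO value was not tested.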
